A study of Mus musculus with 6 samples.

Results

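The keratin gene family was examined on arrays of tissue labelled as mouse aorta. Members were all genes whose symbol is Krt followed by a number and an optional letter, each read through the probe set of highest mean signal over the 6 arrays. This gave 52 genes of 19938 with a probe set of 1 symbol, and each of the 52 had 1 such probe set. The labels give 3 Trail-/- samples and 3 wild-type samples, all of strain C57Bl6/J and 6 weeks old, and the design text states that the knockout mice came from Amgen. The study asked what the loss of Trail changes in the aorta. No label says whether a sample is 1 animal or a pool, so p-values measure only the spread between these samples, which may be technical.

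Keratins are the intermediate filament proteins of epithelial cells. A filament needs an acidic type I chain paired with a basic type II chain, and the pair in use marks the kind of epithelium: Krt5 with Krt14 in the basal layer of stratified epithelia, Krt4 with Krt13 above it in wet mucosae such as the oesophagus, Krt1 with Krt10 in cornified layers, and Krt8 with Krt18 in simple, one-layered epithelia. Hair keratins and inner root sheath keratins belong to the hair follicle. The wall of the aorta itself has no stratified epithelium, and its smooth muscle cells carry vimentin and desmin filaments.

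Signals are given on the log2 scale, on which a difference of 1 is 2-fold, and each array's median over the annotated probe sets was between 6.34 and 6.47. Signals of different probe sets are not comparable as expression levels, so each gene is compared with itself across arrays. All 8 vascular smooth muscle markers were measured, and their summed signal (log2 of the linear sum) was 13.48 to 14.06 on the knockout arrays and 13.58 to 13.91 on the wild-type arrays. For the 8 endothelial markers the sum was 12.23 for wild type 1, where 5 of 8 were over 2-fold above every other array, against 10.57 to 11.18 elsewhere. The deleted gene, Tnfsf10, gave 8.42 on the array labelled wild type 1, but 4.90 and 4.85 on those labelled wild type 2 and 3, against 4.09 to 5.02 on the knockout arrays. On this gene the arrays labelled wild type 2 and 3 read like the knockout arrays, and it is not known if the probe set covers the deleted part. Every direction between genotypes given here is that of the labels. The array labelled wild type 1 also stood apart in other genes, with 945 of 19938 genes (4.74%) over 2-fold below every other array and 944 (4.73%) over 2-fold above. In bulk tissue, fewer cells of a type and less RNA per cell cannot be told apart.

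The keratins fell into 3 patterns across the arrays and a large remainder. On the array labelled wild type 1, 14 of 52 keratins were over 2-fold below every other array (background 4.74%), and none was over 2-fold above (background 4.73%). On the array labelled knockout 2, 7 of 52 were over 2-fold above every other array (background 1.26% of genes). Over the 5 arrays other than wild type 1, the range exceeded 2-fold for 9 of 52 keratins, against 4.16% of genes. The median range there was 0.43 for keratins and 0.37 for all genes. A signal of 8 or more was seen for 10 keratins on the array labelled knockout 1, for 15 on knockout 2 and for 11 on each of knockout 3, wild type 2 and wild type 3. No keratin reached 8 on the array labelled wild type 1, where the 52 lay between 3.24 and 7.01. The 15 keratins with a signal of 8 or more on any array are described singly below. Krt20 with a highest signal of 8.24 was just inside this limit and Krt7 with 7.80 was just outside.

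**Figure D1:**
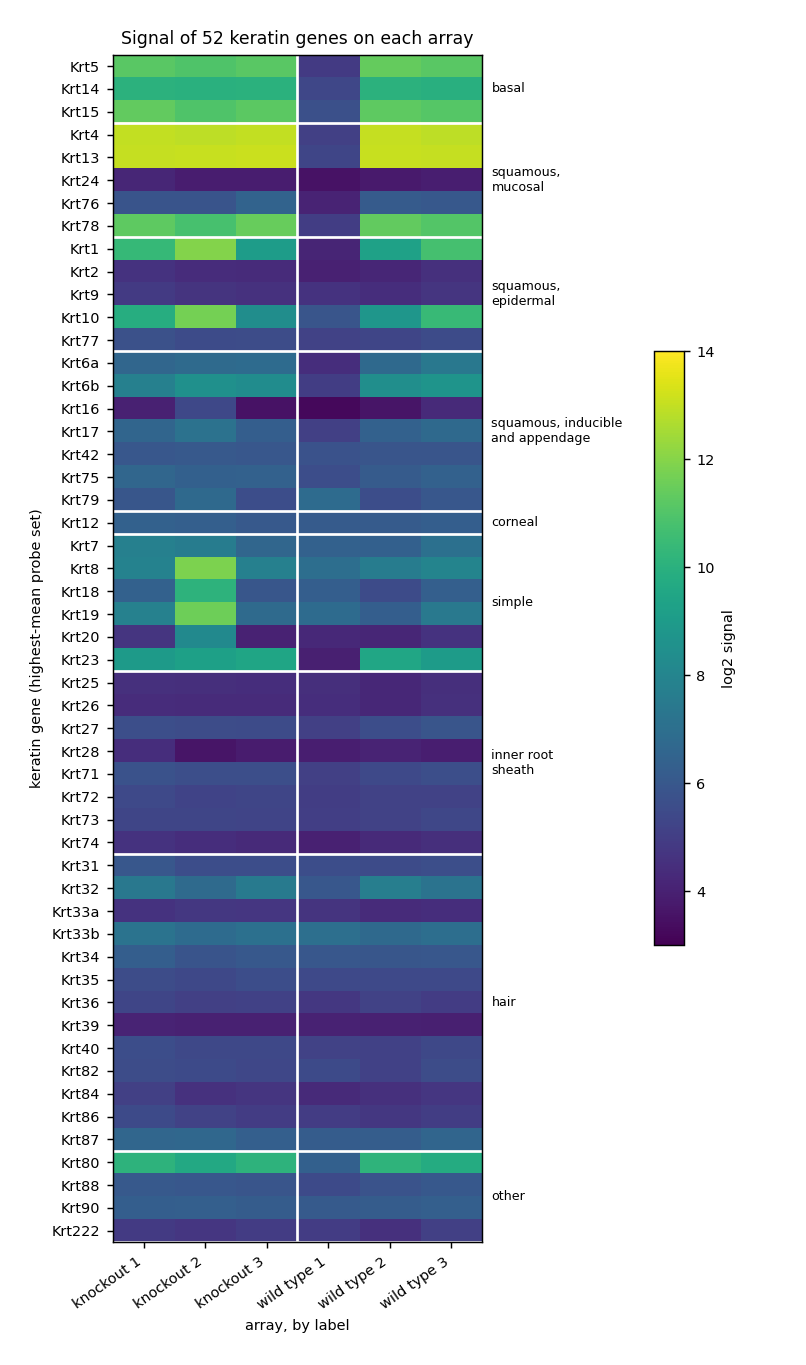
Log2 signal of the 52 keratin genes (rows, grouped by the epithelium they are known from) on the 6 arrays (columns, by label), on a colour scale from 3 to 14. Basal keratins and Krt4, Krt13 and Krt78 were high on all arrays but the one labelled wild type 1, Krt8, Krt18, Krt19 and Krt20 were highest on the one labelled knockout 2, and hair and inner root sheath keratins stayed between 3.64 and 7.71.

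Basal keratins were high on 5 arrays and low on 1. Krt5, the type II chain of basal cells, gave 11.18, 10.98 and 11.17 on the arrays labelled knockout 1, 2 and 3, and 4.85, 11.39 and 11.20 on those labelled wild type 1, 2 and 3. Krt14, its type I partner, gave 10.08, 9.99 and 10.02 in the knockout samples and 5.34, 10.06 and 9.96 in the wild-type samples. Krt15, a further type I keratin of basal cells, gave 11.35, 10.97 and 11.24 on the knockout arrays and 5.70, 11.26 and 11.09 on the wild-type arrays. Each of the 3 genes was low on the array labelled wild type 1 alone, by 4.62 or more below the next array, and the groups overlapped. Without that array their ranges were 0.41, 0.12 and 0.37. The 250 bases before the annotated RefSeq start of Krt5 (GRCm38.p6, chr15:101712906-101713155, minus strand) and of Krt14 (chr11:100206031-100206280, minus strand) are shown because both genes were low on the array labelled wild type 1. They hold none of the motifs searched, so no base is in capitals.
Krt5: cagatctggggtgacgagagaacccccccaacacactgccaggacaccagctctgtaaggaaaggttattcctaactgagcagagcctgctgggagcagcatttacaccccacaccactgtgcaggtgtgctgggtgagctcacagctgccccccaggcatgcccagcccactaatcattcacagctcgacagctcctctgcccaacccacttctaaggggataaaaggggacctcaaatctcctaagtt
Krt14: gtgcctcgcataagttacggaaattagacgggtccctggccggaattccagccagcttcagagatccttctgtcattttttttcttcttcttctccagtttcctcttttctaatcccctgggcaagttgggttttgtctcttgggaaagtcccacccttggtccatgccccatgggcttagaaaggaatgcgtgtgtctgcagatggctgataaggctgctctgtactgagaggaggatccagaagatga

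Among the mucosal squamous keratins, Krt4 and Krt13 had the widest gaps of all keratins between the array labelled wild type 1 and the next array. Krt4, the type II chain of the upper layers of wet stratified mucosae, gave 12.97, 12.92 and 13.01 on the arrays labelled knockout 1, 2 and 3, and 5.09, 13.03 and 12.90 on those labelled wild type 1, 2 and 3. Krt13, its type I partner, gave 13.05, 13.06 and 13.12 for the knockout and 5.31, 13.09 and 13.02 for the wild type. The gap between the array labelled wild type 1 and the next array was 7.81 for Krt4 and 7.71 for Krt13, while the other 5 arrays lay within 0.12 and 0.10 of each other. Krt78, a type II keratin of stratified squamous epithelium, gave 11.29, 10.82 and 11.46 in the knockout samples and 4.99, 11.35 and 11.07 in the wild-type samples. Krt76, a type II keratin known from the palate, is described here after its values were seen and gave 5.85, 5.84 and 6.49 on the knockout arrays and 4.11, 6.17 and 6.05 on the wild-type arrays. Krt24, the remaining member of this class, stayed between 3.53 and 4.17 on all 6 arrays. RefSeq lists 2 starts for Krt13, and the 250 bases before each (GRCm38.p6, chr11:100121567-100121816 and chr11:100120578-100120827, minus strand) are shown with motif matches in capitals. The pattern TGANTCA, in which N is any base, is wider than the AP-1 element, TGACTCA or TGAGTCA. It matches as TGAATCA before the first start and as TGACTCA, the AP-1 element, before the second. CCAAT, the NF-Y element, occurs before the second start on the opposite strand.
Krt13 start 1: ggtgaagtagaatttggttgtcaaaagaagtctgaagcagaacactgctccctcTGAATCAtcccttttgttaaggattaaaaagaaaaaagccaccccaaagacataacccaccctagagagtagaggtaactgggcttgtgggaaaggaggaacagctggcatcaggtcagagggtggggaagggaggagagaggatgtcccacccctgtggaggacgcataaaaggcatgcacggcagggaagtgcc
Krt13 start 2: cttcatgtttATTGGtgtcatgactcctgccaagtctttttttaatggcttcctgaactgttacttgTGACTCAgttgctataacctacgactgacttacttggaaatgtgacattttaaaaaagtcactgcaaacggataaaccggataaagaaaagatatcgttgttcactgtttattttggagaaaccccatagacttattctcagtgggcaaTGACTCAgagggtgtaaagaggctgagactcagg

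A pair of keratins from other classes had the same pattern. Krt23, a type I keratin listed here with the simple epithelial keratins, gave 9.01, 9.27 and 9.47 on the arrays labelled knockout 1, 2 and 3, and 3.98, 9.51 and 9.05 on those labelled wild type 1, 2 and 3. Its gap of 5.03 on the array labelled wild type 1 fell among those of the basal keratins, and on knockout 2, where other simple keratins peaked, it lay within the range of the rest. Krt80, a type II keratin found in many epithelia, gave 10.10, 9.64 and 10.09 for the knockout and 6.36, 10.17 and 9.76 for the wild type.

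The cornified-layer pair varied in degree from array to array. Krt1, the type II chain of cornifying cells, gave 10.36, 11.97 and 9.09 on the arrays labelled knockout 1, 2 and 3, and 4.13, 9.29 and 10.77 on those labelled wild type 1, 2 and 3. Krt10, its type I partner, gave 9.85, 11.71 and 8.40 in the knockout samples and 5.92, 8.77 and 10.41 in the wild-type samples. For both genes the order from high to low was knockout 2, wild type 3, knockout 1, wild type 2, knockout 3 and wild type 1, so each group held high and low arrays. Without wild type 1 the range was 2.88 for Krt1 and 3.31 for Krt10, against 0.12 and 0.10 for Krt4 and Krt13. The other 3 keratins of cornified epidermis, Krt2, Krt9 and Krt77, stayed between 3.99 and 5.72 on all arrays. The promoter of Krt10 (250 bases before the start, GRCm38.p6, chr11:99389365-99389614, minus strand) holds TATAAA close to the start and CCAAT further upstream on the opposite strand, both in capitals.
Krt10: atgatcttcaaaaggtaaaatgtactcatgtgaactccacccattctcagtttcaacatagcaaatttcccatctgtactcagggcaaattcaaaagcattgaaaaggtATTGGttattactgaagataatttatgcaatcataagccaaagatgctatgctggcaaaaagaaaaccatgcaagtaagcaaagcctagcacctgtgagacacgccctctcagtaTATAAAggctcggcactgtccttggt

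Stomach genes were measured beside this pair. The 7 measured stomach epithelium markers (of 8 listed) had a summed signal of 8.33, 15.44 and 8.06 on the arrays labelled knockout 1, 2 and 3, and of 8.23, 7.89 and 10.76 on those labelled wild type 1, 2 and 3. The arrays with the highest and the second highest sums were those with the highest and the second highest Krt1 and Krt10. On knockout 1, knockout 3 and wild type 2 the sum was only 7.89 to 8.33, while Krt1 was at 9.09 to 10.36. Wild type 1 had a sum of 8.23 with Krt1 at 4.13. The simple keratins Krt8, Krt18, Krt19 and Krt20, described below, were also highest on knockout 2. All 7 markers were over 2-fold above every other array on knockout 2. Their part in the keratin values was not tested.

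Of the stress-inducible and appendage keratins, 3 were low on the array labelled wild type 1. Krt6b, a type II keratin induced on wounding and present in oral epithelium, gave 7.80, 8.52 and 8.34 on the arrays labelled knockout 1, 2 and 3, and 4.99, 8.42 and 8.69 on those labelled wild type 1, 2 and 3. Krt6a, a near-identical copy whose probes may share target with Krt6b, gave 6.63, 6.81 and 6.83 in the knockout and 4.46, 6.74 and 7.39 in the wild type. Krt17, a type I keratin of hair follicles and wounded epidermis, gave 6.58, 7.13 and 6.29 against 5.07, 6.40 and 6.75. All 3 were over 2-fold below the others on the array labelled wild type 1. Krt16, the wound-induced partner of Krt6, was at 5.39 on knockout 2 and at 3.24 to 4.33 elsewhere. Krt79, a keratin of the follicle opening and sebaceous duct, had another order, with 6.84 on wild type 1, 6.77 on knockout 2 and 5.59 to 5.98 on the other 4. Krt42 and Krt75 spanned 0.31 and 1.03 over the 6 arrays. Krt6a, Krt16, Krt17 and Krt79 were picked out after their values were seen.

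Simple epithelial keratins were high on a different array, the one labelled knockout 2. Krt8, the type II chain of simple epithelia, gave 7.88, 11.82 and 7.79 on the arrays labelled knockout 1, 2 and 3, and 6.97, 7.61 and 7.96 on those labelled wild type 1, 2 and 3. Krt18, its type I partner, gave 6.41, 10.09 and 5.93 for the knockout and 6.30, 5.53 and 6.35 for the wild type. Krt19, a type I keratin of ducts and glands, gave 7.82, 11.59 and 6.79 in the knockout samples and 6.83, 6.29 and 7.45 in the wild-type samples. Krt20, a type I keratin of gastric surface and intestinal cells, gave 4.69, 8.24 and 4.07 on the knockout arrays and 4.26, 4.20 and 4.60 on the wild-type arrays. On knockout 2 these 4 genes were 3.55 to 3.86 above the next of the arrays other than wild type 1. The groups overlapped for each, since the array labelled knockout 3 was below at least 1 wild-type array. On the array labelled wild type 1, Krt18, Krt19 and Krt20 lay within the range of the remaining arrays, and Krt8 was 0.64 below the lowest of them.

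Krt7, a type II keratin of simple and transitional epithelia, had an order of its own and was picked out after its values were seen. It gave 7.80, 7.60 and 6.65 on the arrays labelled knockout 1, 2 and 3, and 6.41, 6.38 and 7.04 on those labelled wild type 1, 2 and 3. Its highest array, knockout 1, was also the one on which 5 of 7 lung epithelium markers were over 2-fold above every other array, with a summed signal of 12.64 against 8.01 to 10.79. On knockout 2, with Krt7 at 7.60, 1 lung marker, Cldn18, was over 2-fold above every other array at 10.51. It made up most of the sum of 10.79 on that array, where the other lung markers were at 4.87 to 6.64. Sftpc was at 4.87 on knockout 2 against 11.88 on knockout 1. The 6 mesothelial markers summed to 10.10 on knockout 1 and 9.99 on wild type 1, against at most 9.31 on the rest. Krt7 was at 6.41 on wild type 1, so it did not follow this sum there. The part of these tissues in the Krt7 values was not tested. The promoters of the Krt8 and Krt18 pair (GRCm38.p6, 250 bases before the start at chr15:102004343-102004592 on the minus strand and chr15:102027966-102028215 on the plus strand) are shown because both genes were high by a similar amount on the same array. Krt18 holds GCCNNNGGC, the AP-2 element, in capitals, and Krt8 holds none of the motifs searched.
Krt8: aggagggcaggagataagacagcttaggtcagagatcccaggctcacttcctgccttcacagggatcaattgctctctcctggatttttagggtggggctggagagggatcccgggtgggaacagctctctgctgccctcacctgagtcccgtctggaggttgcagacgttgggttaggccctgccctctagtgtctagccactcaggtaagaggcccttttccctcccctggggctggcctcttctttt
Krt18: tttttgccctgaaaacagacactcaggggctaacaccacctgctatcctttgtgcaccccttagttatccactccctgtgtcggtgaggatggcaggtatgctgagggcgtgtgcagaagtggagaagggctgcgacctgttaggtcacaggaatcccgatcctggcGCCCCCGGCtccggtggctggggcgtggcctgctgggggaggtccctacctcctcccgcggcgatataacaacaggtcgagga

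Partners were compared over the arrays other than wild type 1. For each pair, each gene's signal was set against its own mean over the 5 arrays other than wild type 1, which compares no probe set with another. The deviations of Krt4 and Krt13 differed by at most 0.05, those of Krt5 and Krt14 by at most 0.17, those of Krt1 and Krt10 by at most 0.22 and those of Krt8 and Krt18 by at most 0.33. On knockout 2, Krt8 deviated by 3.21 and Krt18 by 3.22. On knockout 3, Krt1 deviated by -1.20 and Krt10 by -1.43. For the Krt4 and Krt13 pair and the Krt5 and Krt14 pair, the small ranges over these 5 arrays keep the differences small, and on knockout 2 Krt5 deviated by -0.20 and Krt14 by -0.03. Keratins that are not partners could also lie close. On knockout 2, Krt4 deviated by -0.05, near the -0.03 of Krt14. Both genes had a range of only 0.12 over these 5 arrays, which keeps any such difference small. Whether closeness was particular to the pairs was therefore not tested. Against the mean of the 4 arrays without wild type 1 and knockout 2, knockout 2 was 4.01 higher for Krt8 and 4.03 for Krt18. For Krt19 and Krt20 it was 4.5 and 3.85 higher. These are descriptions of 5 arrays, with no test.

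**Figure D2:**
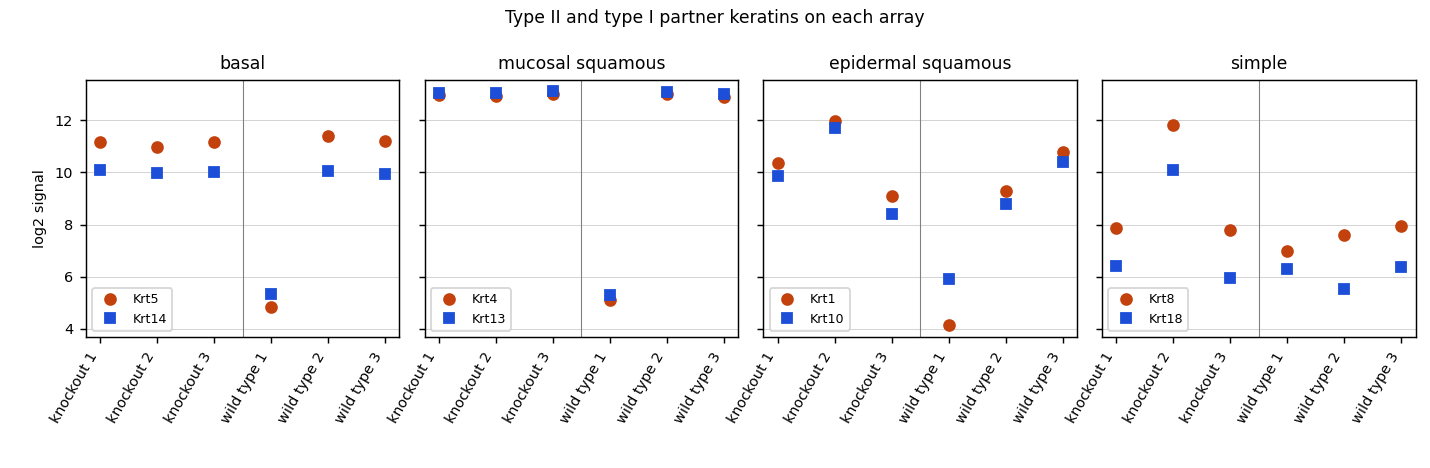
Log2 signal of 4 type II keratins (orange circles) and their type I partners (blue squares) on each array, by label, with a line between the genotypes. The Krt5 and Krt14 pair and the Krt4 and Krt13 pair are level on 5 arrays and low on the array labelled wild type 1, the Krt1 and Krt10 pair ranges from 8.40 to 11.97 on those 5, and the Krt8 and Krt18 pair peaks on the array labelled knockout 2.

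Hair keratins and inner root sheath keratins varied by less than 2-fold over the 6 arrays, with the exception of Krt32. The 13 hair keratins, which harden the hair shaft, had signals of 3.97 to 7.71, and the 8 inner root sheath keratins 3.64 to 5.88. None of these 21 was over 2-fold below all others on the array labelled wild type 1 or over 2-fold above on the one labelled knockout 2. Krt32, a type I hair keratin picked out after its values were seen, had the widest range of the 21 at 1.74, with 7.41, 6.82 and 7.53 on the arrays labelled knockout 1, 2 and 3 and 5.98, 7.71 and 7.18 on those labelled wild type 1, 2 and 3. The corneal keratin Krt12 lay between 6.09 and 6.40, and Krt88, Krt90 and Krt222 each spanned at most 0.60. Krt81 and Krt83, listed in RefSeq, had no probe set named here.

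No keratin passed the test between the genotypes. In limma, fitted on all 14046 probe sets that remained after the lowest 40% by mean signal were left out, 0 of 27 tested keratins passed an adjusted p of 0.05, and 0 probe sets of 14046 did (background 0%). At an unadjusted p under 0.05 there were 0 keratins and 89 probe sets (0.634%). The other 25 keratins were below the filter, whose value of 5.86 fell between Krt88 with a mean of 5.88 and Krt76 with 5.75. Of the 27 tested, 26 had the higher mean in the knockout, against 43.5% of probe sets, and their median difference, knockout minus wild type, was 0.86, against -0.032 over all probe sets. It was 0.51 without knockout 2 and 1.52 without wild type 3. Without the array labelled wild type 1, 19 of 27 had the higher mean in the knockout, against 41.6%, and the median difference was 0.06, against -0.028. There, too, 0 of 27 passed in limma and 0 had an unadjusted p under 0.05, with 1.54% of all probe sets under that value. The groups did not overlap for 1 tested keratin, Krt42, higher in the knockout (background 1.31%), and for 0 lower in the knockout (background 4.29%). Krt42 had 5.97, 6.06 and 5.99 against 5.76, 5.90 and 5.91.

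For several keratins the difference changed when the array labelled wild type 1 or the one labelled knockout 2 was left out. Krt4 averaged 12.96 ± 0.05 (SD, n = 3) in the knockout and 10.34 ± 4.55 (SD, n = 3) in the wild type, a difference of 2.62 (SE 2.18, limma adjusted p = 0.921). On the 5 arrays other than wild type 1 it was 0.00 (SE 0.07). For Krt5 the difference was 1.97 (SE 1.79) with all arrays and -0.18 (SE 0.11) with those 5, and for Krt1 it was 2.41 (SE 1.81) and 0.44 (SE 0.82). Krt8 averaged 9.16 ± 2.30 (SD, n = 3) against 7.51 ± 0.50 (SD, n = 3), a difference of 1.65 (SE 1.13, limma adjusted p = 0.921). It was 1.38 (SE 1.16) without the array labelled wild type 1 and 0.05 when knockout 2 was left out as well. Krt19 was at 1.88 (SE 1.24), 1.86 (SE 1.30) and 0.44 in the same 3 fits. For Krt7 the difference was 0.74 on 6 arrays and 0.64 without wild type 1. For Krt13 the 95% interval without wild type 1 was -0.13 to 0.17. For Krt19 it was -1.25 to 4.97, which covers changes of over 2-fold in either direction.

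**Figure D3:**
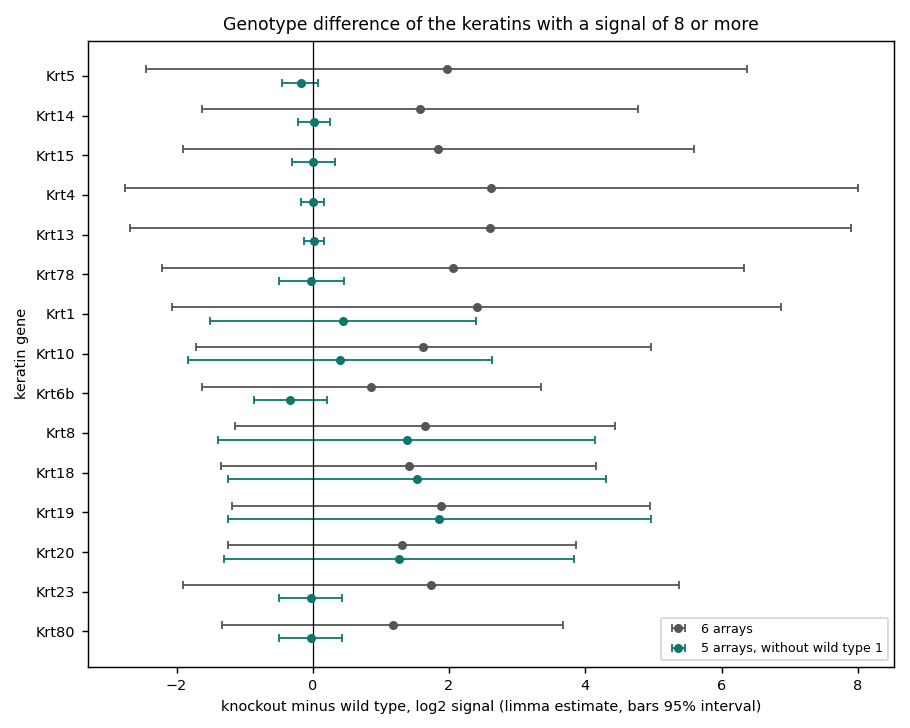
Knockout minus wild type in log2 signal for the 15 keratins that reached a signal of 8, with limma estimates as points and 95% intervals as bars, on 6 arrays (grey) and on the 5 arrays without wild type 1 (green). Every interval includes 0. Without wild type 1 the Krt13 interval narrows from -2.69 to 7.90 down to -0.13 to 0.17, while that of Krt19 stays at -1.25 to 4.97.

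Genes that anchor or regulate keratins were then described from lists. The lists were chosen with earlier results of these data known, so a count above the background is a description and not independent support. Of 13 measured keratin filament partners (of 14 listed), 10 were over 2-fold below all others on the array labelled wild type 1 (background 4.74% of genes). Ppl, the cornified envelope plakin periplakin, gave 6.49 there and 10.79 to 11.21 elsewhere. Pkp1, a desmosomal plaque protein, gave 6.06 against 10.05 to 10.60, Perp, a desmosomal membrane protein, gave 6.96 against 11.14 to 11.39, and Dsp, the plakin that ties keratin to desmosomes, gave 7.78 against 11.48 to 11.71. Of 20 transcription factors of epithelial programmes, 15 were likewise below on that array, against the same background. Ehf, an ETS factor of epithelia, gave 4.67 there and 9.59 to 10.00 elsewhere, and Grhl3, a grainyhead factor of barrier formation, gave 5.34 against 9.15 to 10.02. Sox2 gave 4.73 against 8.44 to 8.99, and Pax9, a factor of the oral and oesophageal lining, gave 5.48 against 8.55 to 9.39. Of the same 20, 1 was over 2-fold above every other array on knockout 2 (background 1.26%). This was Elf3, added after its values were seen, with 8.64 there and 5.08 to 6.34 elsewhere.

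None of these genes passed between the genotypes. In limma, 0 of 12 tested partners and 0 of 17 tested transcription factors had an adjusted p under 0.05, against 0% of all probe sets, and 0 of each had an unadjusted p under 0.05, against 0.634%. The partners' median difference was 0.69 on 6 arrays and -0.03 without wild type 1, and that of the transcription factors 0.84 and -0.13. Markers of the whole squamous tissue moved alongside. They include Pkp1 from the partners and Trp63 from the transcription factors, so the lists are not separate. The 12 listed stratified squamous markers summed to 14.73 to 15.02 on the knockout arrays and to 8.80, 15.04 and 14.86 on those labelled wild type 1, 2 and 3, with 11 of 12 over 2-fold below on wild type 1. All 8 skeletal muscle markers were also over 2-fold below there, as were 4 of 5 measured general epithelium markers, and all 5 brown fat markers were over 2-fold above. The part of these tissues in the keratin values was not tested.

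Some of the other intermediate filament genes were lower or higher on the array labelled wild type 1. The median over the list of wild type 1 minus the mean of the other 5 arrays was -0.04. There, 3 of 16 were over 2-fold below all others (background 4.74%) and 2 over 2-fold above (background 4.73%). Des, the desmin gene of muscle, gave 7.86 there and 11.18 to 11.62 elsewhere. Synm and Sync, which encode muscle filament partners of desmin, gave 7.39 against 9.36 to 9.91 and 7.75 against 9.03 to 9.63. Prph, the filament of peripheral neurons, went the other way, with 8.22 there and 6.06 to 6.23 elsewhere. Vim, the vimentin gene of mesenchymal cells, added here after its values were seen, gave 12.25 there and 11.27 to 11.58 elsewhere.

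**Figure D4:**
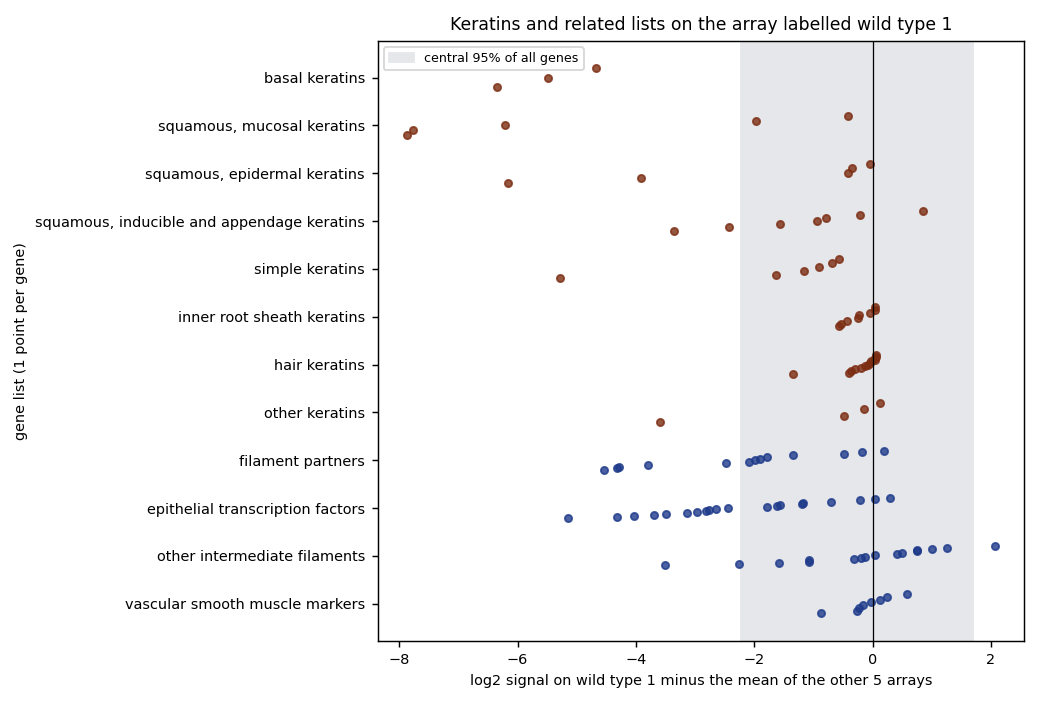
Log2 signal on the array labelled wild type 1 minus the mean of the other 5 arrays, 1 point per gene, for keratin classes (brown) and related lists (blue), with the central 95% of all genes in grey (-2.23 to 1.69). Basal and some squamous keratins lie far to the left of the grey band, and hair and inner root sheath keratins and vascular smooth muscle markers lie inside it.

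Neighbours in the genome could have different patterns. By RefSeq (GRCm38.p6), 27 of the 52 keratins lie on chromosome 11 and 25 on chromosome 15, in clusters with type I chains on the former and type II chains, with Krt18, on the latter. In the order of the cluster, Krt13 and Krt15, at 7.76 and 5.48 below the mean of the other arrays on wild type 1, have as neighbours the hair keratin Krt36, which was 0.36 below, and Krt19, which was 1.16 below. On chromosome 15, Krt4 and Krt78, at 7.87 and 6.21 below, flank Krt79, which was 0.86 above. Krt8 and Krt18, the pair high on knockout 2, follow directly after Krt78.

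Promoters were matched for 36 of the 52 keratins. The 250 bases before each annotated start were searched on both strands for TATAAA (the TATA box), CCAAT (the NF-Y element) and GCCNNNGGC (the AP-2 element). The search also took in TGANTCA (wider than the AP-1 element, with any base at N) and AACCGGTT (the element of grainyhead factors). None of these motifs contains another. TATAAA was found in 17 of 37 keratin promoters (45.9%), against 12.4% of 32851 promoters of the same length. These were 13 of 16 promoters of hair and inner root sheath keratins and 4 of 21 of the other classes. CCAAT was in 40.5% of keratin promoters against 33.8% of all, GCCNNNGGC in 13.5% against 13.7% and TGANTCA in 5.41% against 6.75%. AACCGGTT was in 0 of 37, and in 0.116% of all. A match describes letters in this window only, and TATAAA was counted anywhere in it. Over all promoters, 655 of the 2688 TATAAA matches on the gene's own strand began 40 to 20 bases before the start.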

How the data were processed

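Gene expression was measured in 6 samples labelled as mouse aorta on one-colour Affymetrix arrays, 3 per genotype, with groups and replicate numbers taken from the titles. The deposited table holds log2 values, as read from their range of 1.55 to 13.96, for 35399 probe sets. MAS5 is named, without a role, in the submitters' processing notes. Of background correction, summary and scaling, nothing further is stated in the labels. Values were used as deposited, with no detection calls, so differences at low signal may be understated.

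The platform annotation names 23410 probe sets, 21789 of them with 1 symbol. Knockout was compared with wild type over all annotated probe sets in limma 3.58.1 (R 4.3.3), moderated with an intensity trend, with p-values adjusted by Benjamini-Hochberg and called at 0.05, after the lowest 40% by mean signal over the 6 arrays were left out. Keratins under that filter were fitted without it. The code was tested on simulated data whose spread was taken from the arrays other than wild type 1. That test therefore does not cover the wild-type spread with that array included. Members, gene lists and tests were chosen with earlier results of these data known. Keratins with a signal of 8 or more on any array, and partners of such keratins, were given on every array, and up to 4 genes of each related list by range. Alternatives were no filter, a 60% filter, median centring, quantile normalization, a pseudocount of 64, no trend, robust moderation, a replicate block and leaving out each array. Runs without wild type 1 unfiltered, and without wild type 1 and knockout 2, were added after the data were seen. Promoters came from RefSeq (GRCm38.p6). No label names a build for the array.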

Additional observations from a re-analysis of the deposited data

How the results depend on the processing

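The count of keratins that passed in limma was 0 in each of the 16 other settings, as was the count of probe sets. Unadjusted p-values under 0.05 numbered at most 1 keratin in any of these settings. The 14 tested keratins described singly kept their direction in 198 of 209 runs, and in the other 11 the direction turned. All of these turns were in settings without wild type 1, and most of the runs kept that array. The limma adjusted p was never under 0.767. As no probe set passed in any setting, the side of the threshold could not change. Krt20, below the filter, was not in these runs. Without wild type 1 the direction turned for 6 of the 14. Leaving out each array in turn gave -0.18 to 3.09 for Krt5, 0 to 3.97 for Krt4, -0.02 to 3.16 for Krt78, -0.03 to 2.74 for Krt23, -0.33 to 1.52 for Krt6b and -0.03 to 1.88 for Krt80, with the lowest value of each without wild type 1. Leaving out wild type 1 and knockout 2, a choice made after the data were seen, turned Krt5 to -0.12, Krt23 to -0.04, Krt1 to -0.30, Krt10 to -0.46 and Krt6b to -0.49. The median difference over tested keratins was 0.063 without wild type 1, 0.510 without knockout 2, up to 1.516 without wild type 3, 0.239 over all 52 without a filter, 1.789 over the 14 left by the 60% filter and 0.502 with a pseudocount of 64. Over 4 arrays, without wild type 1 and knockout 2, it was 0.040. Every keratin had 1 probe set, so averaging probe sets could change nothing.

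With the replicate number as a block, 0 keratins passed and the median stayed at 0.855. Same-numbered arrays correlated in their deviations from the group means at 0.095, -0.231 and 0.198, and differently numbered arrays at -0.325 to 0.41. Each group has 3 arrays centred on their own mean, and wild type 1 stood apart. These correlations therefore cannot decide whether the numbers mark pairs. The labels' numbers were not used as pairs in the main fit. Neither detection calls nor signal over background were used here, so no limit for dim keratins is given.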
